A study of Mus musculus with 9 samples.

Results

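The cell cycle and DNA replication genes are a list of 40 genes, defined by name with no threshold on a measured value, out of 54119 genes in the table. It holds 19 genes of S phase and its E2F-driven entry and 21 genes of G2 and mitosis. The genes were measured by RNA-seq in primary microglia, the resident immune cells of the brain, from C57BL/6J mice. There were 9 libraries, 3 each from cells given control siRNA, Chd8 siRNA, and Tsc2 siRNA, and each group carried the replicate numbers 1 to 3. The cells were shaken off mixed glial cultures from whole brains of embryonic day 18, and RNA was taken 3 days after siRNA treatment. The study's methods describe the replicates as cultures of separate brains. The sex of the embryos was not given, nor whether same-numbered libraries of different siRNAs came from one culture. The study's text speaks of LPS stimulation before RNA-seq, whereas the labels name only the siRNA. If LPS was given, all 9 libraries shared it as far as the labels tell. Chd8 encodes a chromatin remodeler and Tsc2 a part of the complex that restrains mTORC1, so that the comparison asks whether cultured microglia that lose either one change their proliferation program.

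A dividing cell first licenses its replication origins with the MCM helicase. Cyclin E with its kinase and the E2F factors then switch on the enzymes that make nucleotides and copy DNA. Later the DREAM complex and FOXM1 govern a wave of genes for mitotic entry, the spindle, and the checkpoint that holds chromosomes until they are aligned. Microglia renew themselves by local division in the brain, and in culture their division depends on CSF1 receptor signals and on the astrocyte layer below them.

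Total counts per library ranged from 16913448 to 33213801, and 3 counts, the smallest number taken as detected here, stood for 0.0903 to 0.177 CPM (counts per 1000000 counts of a library), which covers counting error only. The members took 7411 to 17488 counts, or 0.0428 to 0.0557% of a library. In the knockdown check, Chd8 was at 118, 97.4, and 93.6 CPM with control siRNA and at 86.8, 44.5, and 38.2 with Chd8 siRNA. Tsc2 was at 40.8, 39.9, and 38.9 CPM with control siRNA and at 24.6, 30.6, and 36.5 with Tsc2 siRNA. Both targets were lower in every knockdown library, with log2 fold changes of -0.86 and -0.38, but neither passed the test (adjusted p = 1 for both). With the replicate number in the model, Chd8 passed (adjusted p = 0.00777) and Tsc2 did not (adjusted p = 0.219). That Chd8 call was lost without the control library of number 2 or 3 or the Chd8 siRNA library of number 2. Microglial markers such as Csf1r and C1qa were high, with a sum of 1535 to 2251 CPM over 9 markers, while P2ry12 and Tmem119, markers of homeostatic microglia in the brain, stayed at or below 2.78 CPM.

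Most members were scarce. Mean levels were under 1 CPM for 5 S phase and 8 mitotic genes, from 1 to 10 CPM for 11 and 10 genes, and above 10 CPM for 3 genes of each list. Pcna, Cdt1, and Mcm6 made up 87.4% of the summed S phase CPM, and Mki67, Tpx2, and Cenpe made up 76.7% of the mitotic sum. On a scale per transcript length (counts divided by annotated length, scaled to the same total in each library), Pcna stood highest in control libraries at 52.9, followed by Cdt1 at 23.4, Mcm6 at 6.78, Tpx2 at 4.32, and Mki67 at 2.80. The other 35 members lay between 0.05 and 1.19 on this scale. Pcna, the clamp that holds polymerases on DNA, is also used in DNA repair, and its level on this scale was above that of 95.9% of the genes tested. Of single values, 17 of 171 S phase and 14 of 189 mitotic ones were at 3 counts or fewer. These fell in Cdc6, Cdc45, Rrm2, Ccne2, and E2f2 and in Mybl2, Ccna2, Ccnb1, Aurkb, Plk1, Bub1, Cdc20, and Kif11.

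**Figure D1:**
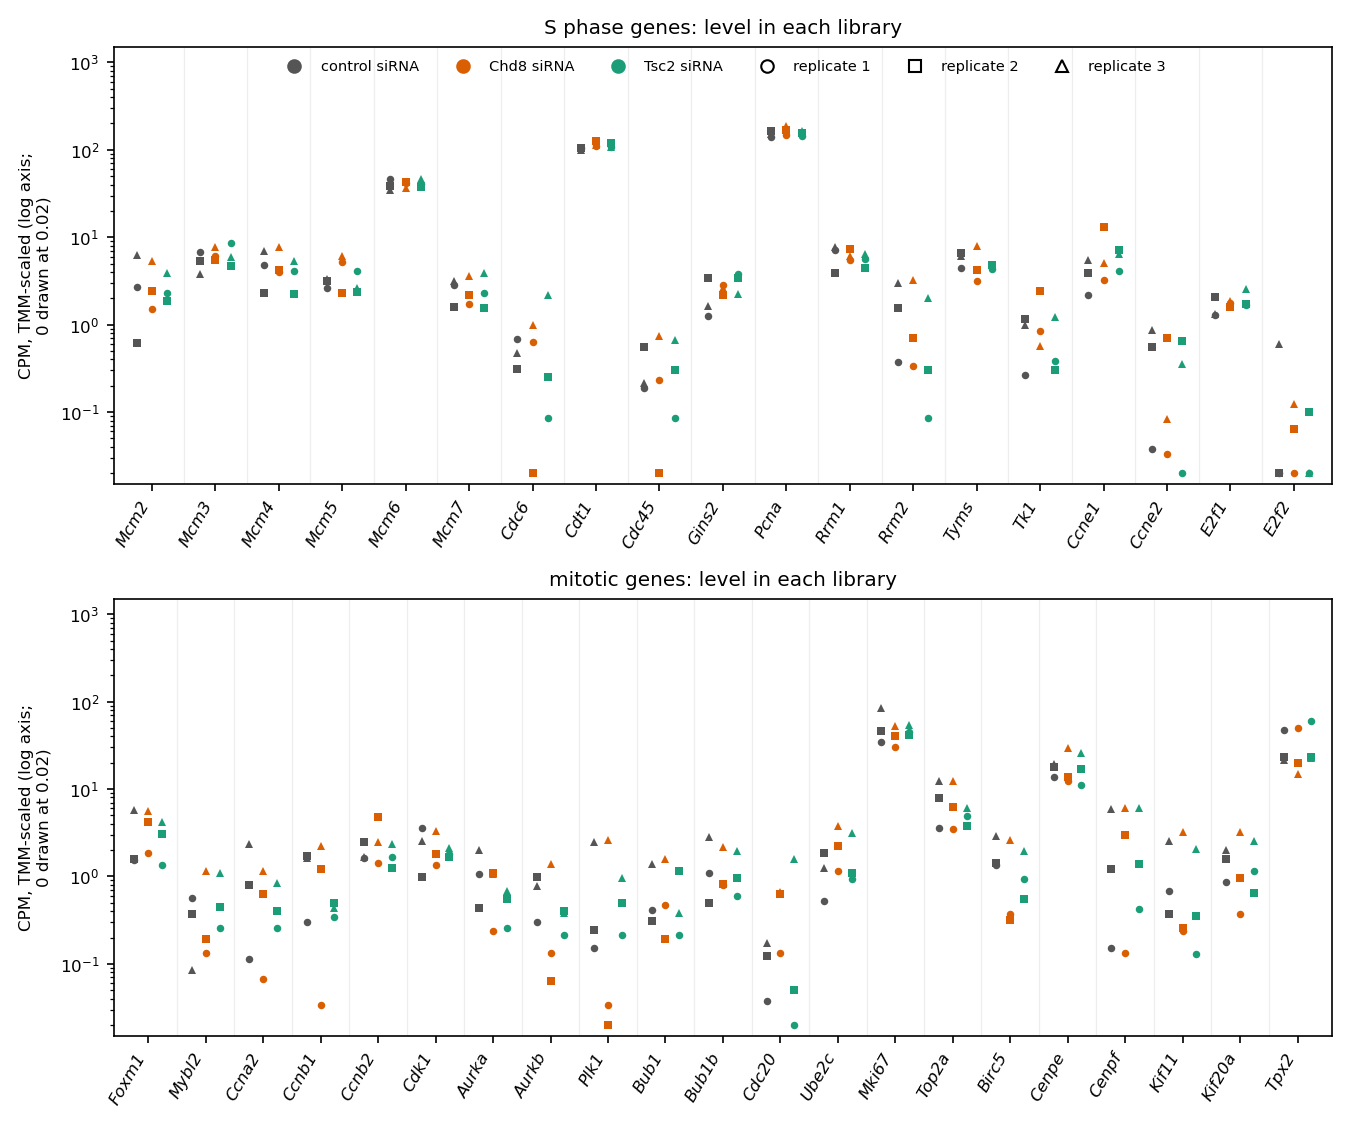
Level of each of the 40 members in each of the 9 libraries, in TMM-scaled CPM on a log axis, with values of 0 drawn at 0.02. Colour marks the siRNA and shape the replicate number; Pcna, Cdt1, Mcm6, Mki67, Tpx2, and Cenpe stand above the rest, and in 10 of 21 mitotic genes the 3 triangles of number 3 all lie above the other 6 points.

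The promoters of both lists were searched for the letters that cell cycle factors are known to read. RefSeq promoter windows of GRCm38.p6, from 250 bases before to 50 bases after a gene's start, were at hand for 32 members, 16 of each list, with 18 windows for the S phase and 16 for the mitotic genes, and a gene was counted when any of its windows matched. Aurkb, Ccna2, Ccne2, Foxm1, Gins2, Kif20a, Mcm4, and Tpx2 were not among them. The E2F site TTTNNCGC was found on either strand in 8 of 16 S phase genes and in 1 of 16 mitotic genes (6.2%), Cdk1, against 5.9% of 27025 genes. The cell cycle homology region TTTGAA, known as the CHR and bound by the DREAM complex, was found on either strand in 11 of 16 mitotic genes (68.8%) and 3 of 16 S phase genes (18.8%), against 20.2% of all genes. CCAAT, the letters of the NF-Y box, stood in 87.5% of mitotic and 62.5% of S phase genes, against 41.1% of all genes. A match says only that these letters are there. Shown 5′ to 3′ on the gene's strand are 4 S phase windows with the E2F letters in capitals, from genes that carry most of the S phase signal or license origins, and then 4 mitotic windows with the CHR in capitals, from genes described further on.
Mcm6, chr1:128359734-128359763, minus strand: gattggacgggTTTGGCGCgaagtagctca
Cdt1, chr8:122568035-122568064, plus strand: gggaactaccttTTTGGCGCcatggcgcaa
Mcm5, chr8:75109345-75109374, plus strand: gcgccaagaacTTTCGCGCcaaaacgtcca
Cdc6, chr11:98908002-98908031, plus strand, motif on the other strand: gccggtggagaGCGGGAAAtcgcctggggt
Mki67, chr7:135716460-135716489, minus strand: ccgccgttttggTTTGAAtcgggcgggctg
Cdk1, chr10:69352910-69352939, minus strand: taccgcggcgagTTTGAAactgctggcact
Cenpf, chr1:189688067-189688096, minus strand: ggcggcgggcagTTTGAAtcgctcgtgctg
Plk1, chr7:122159453-122159482, plus strand: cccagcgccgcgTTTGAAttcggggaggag
The Mcm6, Mki67, and Cdk1 matches began 47, 98, and 15 bases before the annotated start. The Cdt1, Cenpf, and Plk1 matches began 32, 2, and 30 bases after it. Mki67 and Cdk1 each held a further CHR, Mcm6 held 2 further E2F matches that overlapped each other on opposite strands, and Mcm5 a further E2F match that overlapped the one shown on the opposite strand.

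No member passed the test for either siRNA. Of the 40 members, 39 passed the filter on low counts, and E2f2, an activating E2F factor at 0 to 0.60 CPM, did not. In edgeR's quasi-likelihood fit, with Benjamini-Hochberg adjusted p below 0.05 over all 16273 genes and at least a 1.5-fold change, 0 of 39 members were called for Chd8 siRNA, for Tsc2 siRNA, or between the knockdowns, where 0% of all genes were called. Members with an unadjusted p under 0.05 numbered 0 in each comparison, against 3.82%, 2.61%, and 3.1% of all genes. With the replicate number as a block, 0 members were called again while 0.535%, 0.387%, and 0.221% of all genes were. With that block 4 members (Cdt1, Ccne1, Mki67, and Birc5), 1 (Rrm2), and 1 (Tpx2) had an unadjusted p under 0.05, against 12.8%, 10.7%, and 10.7% of all genes. DESeq2's Wald test called 0 members and 0.0553%, 0.0369%, and 0.0307% of all genes, and edgeR's likelihood-ratio test called 0 members and 0.043%, 0.043%, and 0.0123% of all genes. Limma-voom called 0 members and 0% of all genes. At these shares a count of 0 among 39 members lay near the background. The 2 knockdown comparisons share their control libraries, so that a control library that stands apart moves both.

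The S phase list sat at the level of all genes or slightly above it. The median log2 fold change of its 18 tested members was 0.15 for Chd8 and 0.03 for Tsc2 knockdown, beside a median of -0.02 over all genes in both comparisons. Above 0 were 13 and 10 S phase genes, as were 47.8% and 47.6% of all genes. The Tsc2 value was -0.02 with the replicate number as a block and -0.32 without the Tsc2 siRNA library of number 3. Between the knockdowns, Chd8 siRNA against Tsc2 siRNA, the S phase median was 0.09, with 10 of 18 genes above 0 against 50.6% of all genes. This median was -0.01 in limma-voom. It ran from -0.07 to 0.33 over the fits and was above 0 in 30 of 32. Summed S phase CPM was 329 to 344 with control siRNA, 338 to 399 with Chd8 siRNA, and 332 to 371 with Tsc2 siRNA, so that the groups overlapped.

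**Figure D2:**
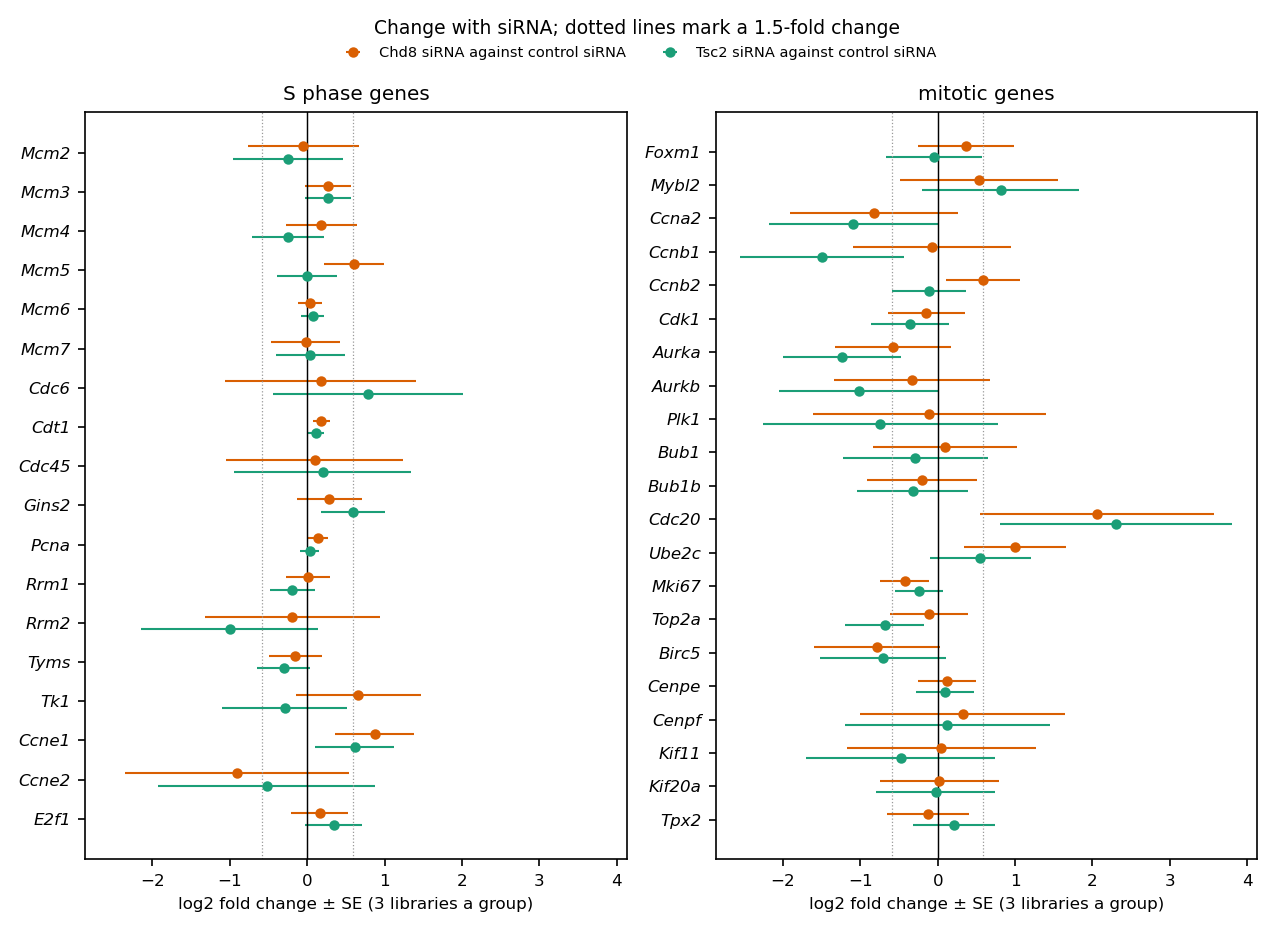
Log2 fold change of each tested member with its standard error, for each knockdown against control siRNA (3 libraries a group), S phase genes on the left and mitotic genes on the right. No member was called; the bars are short for Mcm6, Cdt1, and Pcna and long for scarce genes such as Cdc20, Plk1, and Ccne2.

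Cdt1 and the MCM genes act in origin licensing. Cdt1, which loads the MCM helicase, was at 105, 105, and 98.7 CPM with control siRNA, at 110, 126, and 114 with Chd8 siRNA, and at 107, 119, and 108 with Tsc2 siRNA. It was the only member whose control libraries did not overlap those of either knockdown, as in 9.09% of all genes for the Chd8 and 8.11% for the Tsc2 knockdown. The change was small, with a fold change of 1.13 (95% interval 0.956 to 1.34) for Chd8 siRNA and 1.08 (0.912 to 1.28) for Tsc2 siRNA. Mcm6, a helicase subunit, was at 46.2, 38.2, and 34.6 CPM with control siRNA, at 42.2, 43.2, and 36.6 with Chd8 siRNA, and at 40.8, 37.8, and 46.2 with Tsc2 siRNA. Its groups overlapped fully, and the fold changes were 1.03 (0.812 to 1.29) and 1.05 (0.831 to 1.32).

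Mcm2, another subunit, was far lower and more spread, at 2.71, 0.616, and 6.26 CPM with control siRNA, 1.51, 2.42, and 5.39 with Chd8 siRNA, and 2.31, 1.85, and 3.92 with Tsc2 siRNA. Mcm4 was at 4.87, 2.28, and 6.91 CPM with control siRNA, 3.99, 4.27, and 7.73 with Chd8 siRNA, and 4.14, 2.26, and 5.42 with Tsc2 siRNA. In both genes the number-3 library was the highest of each group, and the spread within a group was larger than any difference between groups. Mcm5 was at 2.60, 3.14, and 3.30 CPM with control siRNA, 5.23, 2.30, and 6.17 with Chd8 siRNA, and 4.06, 2.36, and 2.61 with Tsc2 siRNA. Its log2 fold change of 0.61 ± 0.39 (SE) with Chd8 siRNA came from 2 of 3 libraries and did not pass (unadjusted p = 0.147, adjusted p = 1). Gins2, part of the GINS complex that joins the helicase, was at 1.24, 3.45, and 1.63 CPM with control siRNA, 2.81, 2.17, and 2.63 with Chd8 siRNA, and 3.84, 3.41, and 2.23 with Tsc2 siRNA. The groups overlapped, with a log2 fold change of 0.59 ± 0.42 for Tsc2 siRNA (unadjusted p = 0.187, adjusted p = 1).

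Of the replication and nucleotide genes, Pcna was the most abundant and the steadiest. It was at 140, 164, and 153 CPM with control siRNA, at 149, 167, and 188 with Chd8 siRNA, and at 143, 158, and 166 with Tsc2 siRNA. The Chd8 siRNA library was higher than the control library of the same number at each of the 3 numbers, as 17.7% of all genes were, but the ranges overlapped and the fold change was 1.10 (95% interval 0.905 to 1.34). For Tsc2 siRNA the fold change was 1.02 (0.838 to 1.24). Pcna, Cdt1, and Mcm6 were the only members whose 95% interval stayed within a 1.5-fold change either way in all 3 comparisons. Rrm2, the regulated subunit of ribonucleotide reductase, was at 0.377, 1.54, and 3.00 CPM with control siRNA, 0.335, 0.702, and 3.25 with Chd8 siRNA, and 0.0854, 0.301, and 1.99 with Tsc2 siRNA. It differed several-fold among libraries of 1 siRNA, and at number 1 with Tsc2 siRNA it was at 3 counts or fewer. Rrm2 was lower with Tsc2 siRNA than with control siRNA at each number, as 16.6% of all genes were, and with the replicate number as a block its log2 fold change was -1.48 (unadjusted p = 0.0178, adjusted p = 0.335). Tk1, thymidine kinase, was at 0.264, 1.17, and 0.987 CPM with control siRNA, 0.837, 2.42, and 0.576 with Chd8 siRNA, and 0.384, 0.301, and 1.23 with Tsc2 siRNA. These values overlapped throughout, and 72.3% of the Tk1 counts lay on transcripts annotated with a retained intron.

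The switch genes of S phase entry did not pass either. Ccne1, the cyclin that starts S phase with its kinase, was at 2.19, 3.88, and 5.53 CPM with control siRNA, 3.28, 13.0, and 5.10 with Chd8 siRNA, and 4.06, 7.17, and 6.5 with Tsc2 siRNA. It had the lowest p of the S phase list for Chd8 siRNA, with a log2 fold change of 0.87 ± 0.52 (unadjusted p = 0.124, adjusted p = 1). This rested on 1 library, since without the Chd8 siRNA library of number 2 the value for Ccne1 was 0.12. In a fit without that library and with the replicate number as a block it was 0.27. With the block and all libraries, the unadjusted p of Ccne1 in edgeR's test was under 0.05. E2f1, an activating E2F factor, was at 1.28, 2.09, and 1.33 CPM with control siRNA, 1.78, 1.59, and 1.85 with Chd8 siRNA, and 1.67, 1.70, and 2.55 with Tsc2 siRNA. Its groups overlapped, with log2 fold changes of 0.16 ± 0.37 and 0.34 ± 0.37. Of the 7 other tested S phase genes (Mcm3, Mcm7, Cdc6, Cdc45, Rrm1, Tyms, and Ccne2), log2 fold changes ran from -0.91 for Ccne2 to 0.27 for Mcm3 with Chd8 siRNA. With Tsc2 siRNA they ran from -0.53 for Ccne2 to 0.79 for Cdc6, with the lowest unadjusted p at 0.392.

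The mitotic list gave no call in either knockdown. The median log2 fold change of its 21 members was -0.07 for Chd8 and -0.29 for Tsc2 knockdown, beside -0.02 over all genes, with 10 and 6 members above 0, against 47.8% and 47.6% of all genes. Between the knockdowns, Chd8 siRNA against Tsc2 siRNA, the median was 0.27, with 16 members above 0, against 50.6% of all genes. With the replicate number as a block the 3 medians were -0.13, -0.13, and 0.14. Without the control library of number 3 the mitotic medians of the knockdowns were 0.37 and 0.21, a fit that leaves the numbers unbalanced, and with the block they were then -0.21 and -0.22. With the block the Chd8 median turned to 0.12 without the control library of number 1 and to 0.06 without the Chd8 siRNA library of number 1, and the Tsc2 median to 0.03 without that control library. The median between the knockdowns was -0.52, with 4 members above 0, without the Chd8 siRNA library of number 3 (-0.15 with the block), and -0.03 in limma-voom. Summed mitotic CPM overlapped, at 112 to 176 with control siRNA, 103 to 152 with Chd8 siRNA, and 101 to 141 with Tsc2 siRNA.

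Mki67, the proliferation marker Ki-67 that coats mitotic chromosomes, was at 34.5, 46.7, and 84.4 CPM with control siRNA, at 30.1, 41.0, and 52.0 with Chd8 siRNA, and at 44.8, 41.7, and 53.6 with Tsc2 siRNA. Every Chd8 siRNA library was lower than the control library of its number, as 18.6% of all genes were, and the ranges overlapped. The log2 fold changes were -0.43 ± 0.31 for Chd8 siRNA (unadjusted p = 0.198, adjusted p = 1) and -0.24 ± 0.31 for Tsc2 siRNA. Without the control library of number 3 the values for Mki67 were 0.02 and 0.21. With the replicate number as a block they were -0.38 and -0.15, and with the block and without that library -0.15 and 0.07. Top2a, the topoisomerase that untangles sister chromosomes, was at 3.58, 7.82, and 12.4 CPM with control siRNA, 3.48, 6.25, and 12.2 with Chd8 siRNA, and 4.91, 3.81, and 6.03 with Tsc2 siRNA. Control and Chd8 siRNA libraries lay close together number by number, and the log2 fold change for Tsc2 siRNA was -0.68 ± 0.51 (unadjusted p = 0.211, adjusted p = 1).

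Among the kinases and cyclins of mitotic entry, Cdk1, the kinase that drives it, was at 3.55, 0.985, and 2.57 CPM with control siRNA, 1.34, 1.79, and 3.33 with Chd8 siRNA, and 1.79, 1.66, and 2.14 with Tsc2 siRNA. Ccnb1, its cyclin, was at 0.302, 1.72, and 1.63 CPM with control siRNA, 0.0335, 1.21, and 2.22 with Chd8 siRNA, and 0.341, 0.501, and 0.439 with Tsc2 siRNA. Both overlapped between groups, and the log2 fold change of Ccnb1 with Tsc2 siRNA, -1.49 ± 1.06, had an unadjusted p of 0.19 and an adjusted p of 1. Ccnb2, a related cyclin, was at 1.62, 2.46, and 1.67 CPM with control siRNA, 1.41, 4.78, and 2.51 with Chd8 siRNA, and 1.67, 1.25, and 2.37 with Tsc2 siRNA. Aurka, a spindle kinase, was at 1.06, 0.431, and 2.02 CPM with control siRNA, 0.235, 1.08, and 1.07 with Chd8 siRNA, and 0.256, 0.552, and 0.673 with Tsc2 siRNA. Aurka had the lowest unadjusted p of the mitotic list for Tsc2 siRNA, 0.136, with a log2 fold change of -1.24 ± 0.76 and an adjusted p of 1.

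Foxm1, the factor that drives late cell cycle genes, was at 1.55, 1.60, and 5.75 CPM with control siRNA, 1.88, 4.15, and 5.55 with Chd8 siRNA, and 1.37, 3.06, and 4.19 with Tsc2 siRNA. Here number 3 was highest in each group, and the knockdown log2 fold changes were 0.37 ± 0.62 and -0.05 ± 0.62. Ube2c and Cdc20 work with the anaphase-promoting complex, which ends mitosis. Ube2c was at 0.528, 1.85, and 1.24 CPM with control siRNA, 1.1, 2.23, and 3.78 with Chd8 siRNA, and 0.939, 1.10, and 3.16 with Tsc2 siRNA. Its Chd8 siRNA libraries were higher than the control libraries at each number, as 17.7% of all genes were. The log2 fold change was 0.99 ± 0.66 (unadjusted p = 0.163, adjusted p = 1). Cdc20 was at 0.0377, 0.123, and 0.172 CPM with control siRNA, 0.134, 0.638, and 0.658 with Chd8 siRNA, and 0, 0.0501, and 1.58 with Tsc2 siRNA. Apart from the last, all values of Cdc20 were below 1 CPM, and its log2 fold change for Tsc2 siRNA, 2.31 ± 1.5, turned to -1.97 without the Tsc2 siRNA library of number 3.

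Kif11, a motor that pushes spindle poles apart, was at 0.679, 0.369, and 2.57 CPM with control siRNA, 0.235, 0.255, and 3.25 with Chd8 siRNA, and 0.128, 0.351, and 2.08 with Tsc2 siRNA. Cenpf, a kinetochore protein, was at 0.151, 1.23, and 5.92 CPM with control siRNA, 0.134, 3.00, and 6.05 with Chd8 siRNA, and 0.427, 1.40, and 6.06 with Tsc2 siRNA. In both genes the groups overlapped, and number 3 was the highest library of each group. Tpx2, which activates Aurora A on the spindle, was at 47.6, 23.0, and 21.4 CPM with control siRNA, 49.7, 19.8, and 14.8 with Chd8 siRNA, and 60.5, 23.4, and 22.6 with Tsc2 siRNA. Here number 1 stood high in every group. Tpx2 was higher with Tsc2 siRNA than with control siRNA at each number, as 15.5% of all genes were, and lower with Chd8 siRNA than with Tsc2 siRNA at each number, as 16.1% were. With the replicate number as a block, the latter log2 fold change was -0.37 (unadjusted p = 0.00961, adjusted p = 0.268). Of the 9 mitotic genes not given by library (Mybl2, Ccna2, Aurkb, Plk1, Bub1, Bub1b, Birc5, Cenpe, and Kif20a), log2 fold changes ran from -0.82 for Ccna2 to 0.53 for Mybl2 with Chd8 siRNA and from -1.09 to 0.81 for the same genes with Tsc2 siRNA. In the fit without the block, the lowest unadjusted p among them was 0.362 in the Chd8 and 0.34 in the Tsc2 comparison. Ccna2 and Birc5 were lower than control at each number with Chd8 siRNA, as 18.6% of all genes were. With Tsc2 siRNA this held for Aurkb and Birc5, as for 16.6% of all genes. None of these 9 genes was higher than control at each number with either siRNA.

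The members did differ between replicate numbers. In a fit with both siRNA and replicate number, 18 of 39 members (46.2%) passed an F test for the number at an FDR of 0.05, against 25% of all genes. They were 5 of 18 S phase genes (Rrm2, Mcm4, Mcm2, Ccne1, and Ccne2) and 13 of 21 mitotic genes (Tpx2, Cenpf, Kif11, Cenpe, Mki67, Foxm1, Plk1, Top2a, Birc5, Ccna2, Bub1b, Kif20a, and Ube2c). Of the 18 genes, 15 were highest at number 3, Ccne1 and Ccne2 at number 2, and Tpx2 at number 1. Genes that passed and were highest at number 3 made up 7.36% of all genes. In 14 members, 4 of S phase and 10 mitotic, the 3 libraries of number 3 all lay above the other 6, as they did in 5.36% of all genes.

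**Figure D3:**
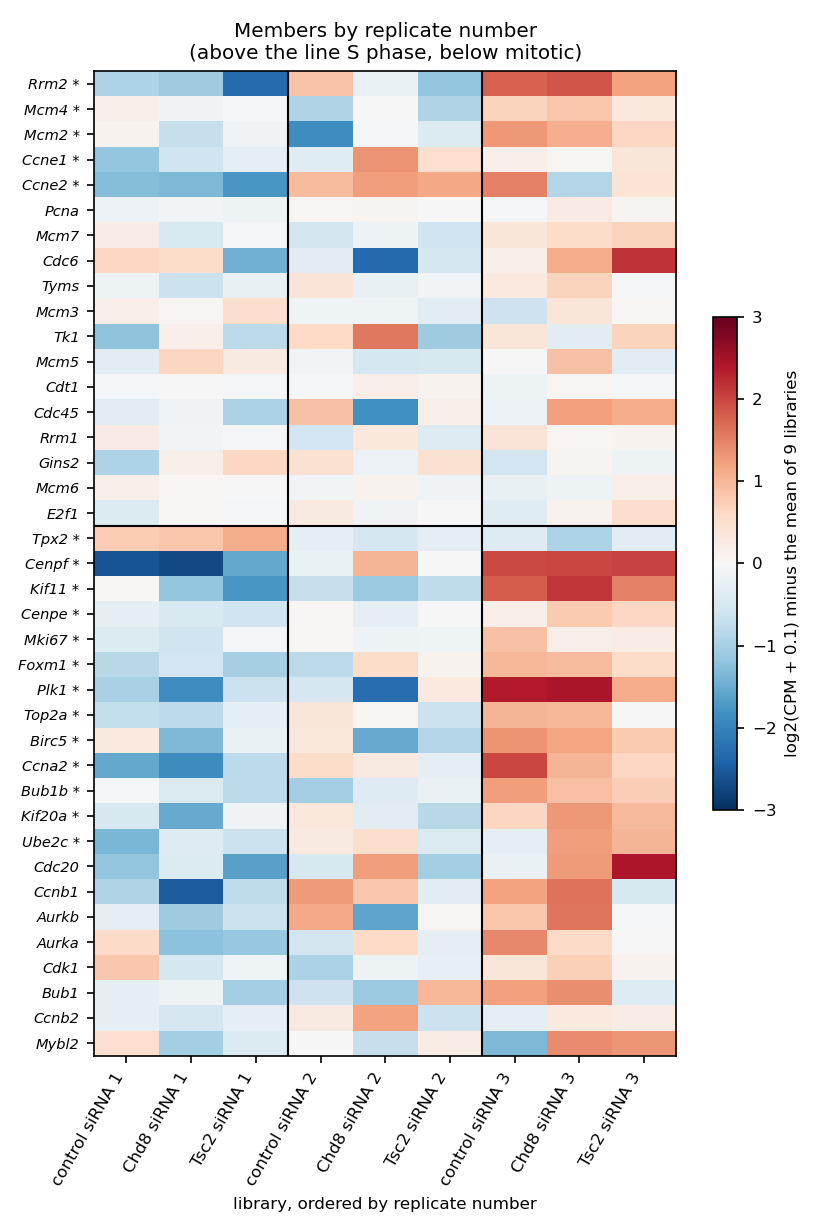
Level of each tested member relative to its mean over the 9 libraries, as log2(CPM + 0.1), with libraries in columns grouped by replicate number and genes in rows, S phase above the line and mitotic below; asterisks mark an FDR below 0.05 for the number. Most mitotic rows are red in the 3 columns of number 3 and blue at number 1, and Tpx2 has the opposite order.

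Cenpf averaged 0.237 ± 0.164 CPM (SD, n = 3) at number 1, 1.88 ± 0.974 at number 2, and 6.01 ± 0.0772 at number 3. The difference between numbers 3 and 1 was 4.70 ± 0.48 on the log2 scale (adjusted p for the number 9.3e-06). Kif11 and Plk1, the latter a kinase of mitotic entry, were low at numbers 1 and 2 alike and higher at number 3, by 3.05 ± 0.61 and 4.12 ± 0.95 log2 units over number 1 (adjusted p = 0.000802 and 0.00549). Rrm2 was 3.50 ± 0.57 log2 units higher at number 3 than at number 1 (adjusted p = 0.000597). Of the abundant genes, Mki67 and the kinetochore motor gene Cenpe were higher at number 3 than at number 1 by 0.78 ± 0.15 and 1.01 ± 0.17 log2 units (adjusted p = 0.00268 and 0.00122). Top2a and Foxm1 were higher by 1.27 ± 0.29 and 1.70 ± 0.33 (adjusted p = 0.00934 and 0.00354).

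Tpx2 went the other way, at 52.6 ± 6.94 CPM (SD, n = 3) at number 1, 22.1 ± 1.99 at number 2, and 19.6 ± 4.20 at number 3. Number 3 was lower than number 1 by -1.44 ± 0.13 log2 units (adjusted p = 5.5e-07), and all 3 number-1 libraries lay above the other 6, as in 9.64% of all genes. Of the Tpx2 counts, 93.0% were assigned to 1 protein-coding transcript, whose level followed the same order. Pcna, Cdt1, and Mcm6, which dominate the S phase sum, did not pass for the number (adjusted p = 0.0864, 0.433, and 0.652). Of the mitotic genes with a promoter window, 7 of 11 with a CHR and 2 of 5 without one passed, and of S phase genes 0 of 7 with an E2F site and 3 of 8 without one passed. No test was run on these counts.

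Without each library in turn, 10 to 16 members passed for the number. The counts moved by over 1.5 times without the Chd8 siRNA library of number 3, with 10 members (25.6%) against 21% of all genes, and without the Chd8 siRNA library of number 1, with 11 members (28.2%) against 17.8%. The excess of the members over all genes was thus small without the former library. Rrm2, Foxm1, Mki67, Cenpe, Cenpf, Kif11, and Tpx2 passed in each of these fits.

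Markers of other cells and of activation moved with the replicate number as well. Astrocyte markers (7 genes, among them Gfap and Slc1a3) summed to 11.6 to 14.4 CPM at number 1, 23.3 to 26.4 at number 2, and 46.7 to 106 at number 3, highest in the control library, and Aqp4 was at 0 in all 3 libraries of number 1. Fibroblast and mural markers (5 genes, with Dcn and Lum near 0) summed to 7.47 to 10.1, 14.7 to 29.99, and 26.8 to 63.3 CPM. Microglial markers were highest at number 1, at 2138 to 2251, 1870 to 1981, and 1535 to 1933 CPM. Neural progenitor markers (4 genes, among them Nes and Sox2, which dividing precursors express) summed to 140 and 138 CPM in the control and Chd8 siRNA libraries of number 3 and to 94.5 in the Tsc2 siRNA library, against 81.3 to 95.8 at numbers 1 and 2. Neuron markers summed to 3.10 to 5.71 CPM at number 3 and 1.37 to 3.33 at numbers 1 and 2. The sums for oligodendrocyte lineage and endothelial markers were lowest at number 3, at 11.8 to 19.9 and 7.42 to 7.57 CPM. The LPS response genes, which include Tnf and Il1b, summed to 11160 to 13545 CPM at number 1, 19796 to 21214 at number 2, and 23224 to 25829 at number 3. The part of these other cells and of activation in the members' levels was not tested, and in bulk RNA a larger share of dividing cells and more RNA of these genes per cell cannot be told apart.

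**Figure D4:**
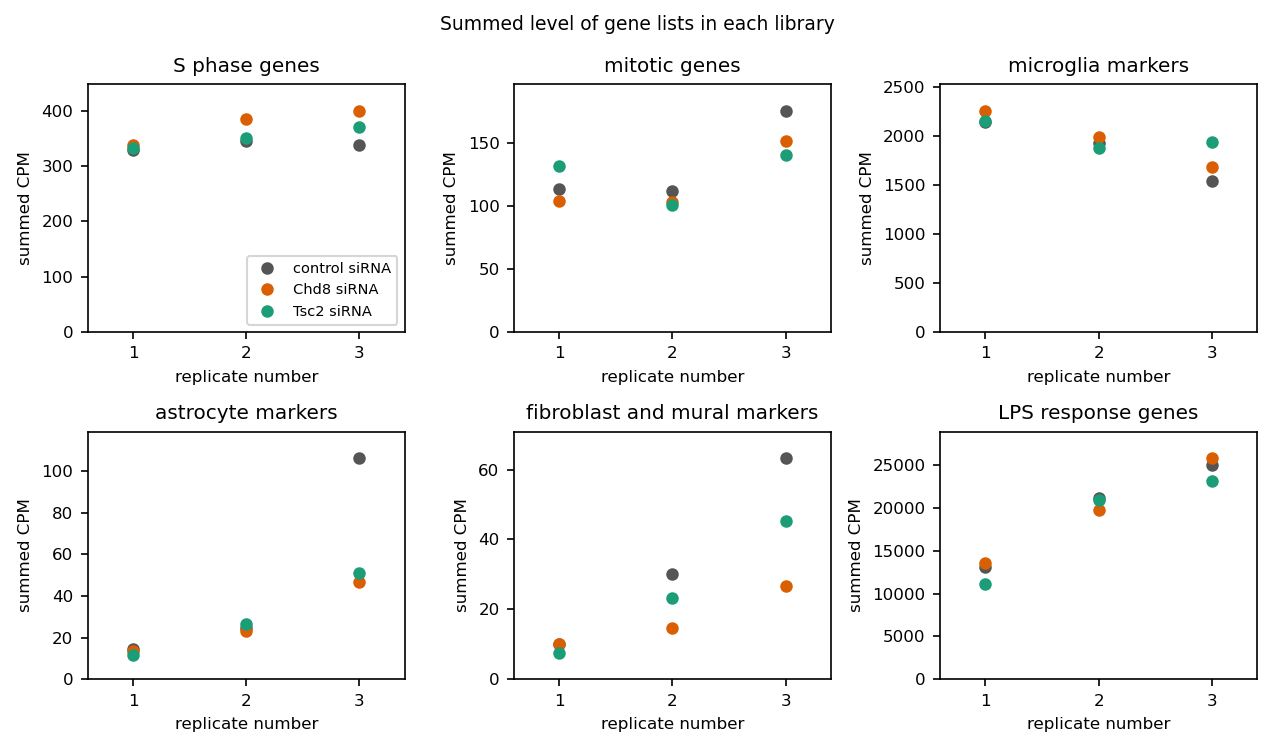
Summed CPM of the S phase and mitotic genes and of marker lists in each library, against the replicate number and coloured by siRNA, each panel on its own linear axis from 0. The mitotic sum was 141 to 176 CPM at number 3 against 101 to 132 at numbers 1 and 2, while astrocyte, fibroblast, and LPS response sums were lowest and microglial markers highest at number 1.

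The mitotic sum was highest at number 3, at 104 to 132 CPM at number 1, 101 to 112 at number 2, and 141 to 176 at number 3, whatever the siRNA. The S phase sums lay closer together, at 329 to 338, 344 to 384, and 338 to 399 CPM.

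Other genes of the pathway were not called with the siRNAs either. Of 27 genes of G1 and its brakes, 20 further replication genes, 24 further mitotic genes, and the 3 tested growth signal genes of microglia (Csf1, Csf1r, and Myc), 0 were called with either siRNA. For Chd8 siRNA 1 was higher and 3 were lower at an unadjusted p under 0.05 in edgeR's test, for Tsc2 siRNA 0 passed that mark, and between the knockdowns 1 did, against 3.82%, 2.61%, and 3.1% of all genes. With the replicate number as a block 8, 5, and 10 of these 74 genes did (10.8%, 6.76%, and 13.5%), against 12.8%, 10.7%, and 10.7% of all genes. Uhrf1, which keeps DNA methylation through replication, was at 6.52, 4.50, and 6.35 CPM with control siRNA and at 4.05, 1.72, and 1.89 with Chd8 siRNA. These groups did not overlap, as in 9.09% of all genes, and the log2 fold change of -1.17 ± 0.39 failed the correction (unadjusted p = 0.0135, adjusted p = 1). E2f7, a repressing E2F factor, was at 4.15, 2.09, and 4.38 CPM with control siRNA and at 2.24, 1.15, and 1.81 with Chd8 siRNA (log2 fold change -1.02 ± 0.39, unadjusted p = 0.0253, adjusted p = 1). Cdkn2c, an inhibitor of CDK4 and CDK6, was at 0.453, 0.185, and 0.214 CPM with control siRNA and at 0.904, 1.59, and 0.411 with Chd8 siRNA (1.72 ± 0.67, unadjusted p = 0.0288, adjusted p = 1). Cdc25c, the phosphatase that activates CDK1, was at 0.754, 0.308, and 1.72 CPM with control siRNA and at 0.335, 0.128, and 0.247 with Chd8 siRNA (-1.92 ± 0.76, unadjusted p = 0.0308, adjusted p = 1). In these 3 genes the groups overlapped. Pttg1, securin, was at 36.8, 29.9, and 27.7 CPM with Chd8 siRNA and at 44.6, 36.5, and 42.8 with Tsc2 siRNA (-0.39 ± 0.16, unadjusted p = 0.0313, adjusted p = 1).

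For the replicate number, 10 of the 27 G1 genes, 1 of the 20 replication genes, and 7 of the 24 mitotic genes passed at an FDR of 0.05, of which 2, 0, and 4 were highest at number 3. Over all genes 25% passed and 7.36% passed and were highest at number 3. In none of the 3 lists did all sums of number 3 lie above the other 6, unlike the mitotic sum of the members. Gene by gene, the number-3 libraries all lay above the other 6 in 2 of the 20 replication and 6 of the 24 mitotic genes. This held for 0 of the 27 G1 genes and for 5.36% of all genes. The further mitotic genes summed to 146 to 162 CPM at number 1, 119 to 122 at number 2, and 134 to 141 at number 3. The replication genes summed to 88.9 to 105, 68.7 to 75.9, and 82.0 to 102 CPM, and the G1 genes to 1040 to 1107, 1533 to 1651, and 1499 to 1746 CPM. Csf1, the growth factor of microglia, was at 37.4, 111, and 207 CPM with control siRNA, at 43.1, 119, and 207 with Chd8 siRNA, and at 37.1, 122, and 144 with Tsc2 siRNA. It was lowest at number 1 and highest at number 3 in each group. Of the 3 tested growth signal genes, 2 passed for the number, 1 highest at number 1 and 1 at number 3.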

How the data were processed

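The authors quantified reads with Salmon 0.14.1 on mm10 and deposited estimated counts per transcript for each of the 9 libraries, not normalized; the annotation release is not given in the sources used here. The kit was stranded per the labels. All 9 columns matched a sample, and 0 belonged to none. Counts of all Ensembl transcripts of a gene were summed with GENCODE mouse release 21 (139852 of 140948 transcripts matched; the rest held 0.27% of counts), rounded, filtered with filterByExpr, scaled by TMM, and tested with the quasi-likelihood test of edgeR 4.0.16 in R 4.3.3, all libraries in 1 fit. DESeq2 1.42.0 and limma 3.58.1 served as alternatives, beside other scalings and filters, the replicate block, and each library left out. The tests were tried on simulated data.

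The replicate numbers come from the sample titles. Deviations from group means correlated at 0.244 to 0.521 in all 9 same-numbered pairs and at -0.381 to 0.0363 in other pairs, so the numbers were taken to pair the libraries. P-values measure the spread between these libraries only.

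The list is defined by gene names alone, but it, the other lists, and the tests were chosen with earlier results of these data known. Values by library are given for 10 fixed genes, for the 3 members of each list with the lowest p in each comparison and for the replicate number, and for related genes with an unadjusted p under 0.05. Csf1 was given by library outside this rule, as were the targeted genes Chd8 and Tsc2. Of the members, 14 overlap an annotated gene on the opposite strand and 8 on the same strand (Mcm7, Cdt1, Rrm1, Foxm1, Mybl2, Top2a, Kif11, and Tpx2), 19 in all. These overlaps are of whole gene spans, introns included. Members with an overlap on the same strand may share reads with that gene, whereas a stranded kit should keep opposite strands apart. Shared reads were not tested.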

Additional observations from a re-analysis of the deposited data

How the results depend on the processing

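The count of members called with either siRNA or between them was 0 under all 32 alternatives, replicate block included, where at most 0.0553% of all genes were called without the block and at most 0.817% with it. Without the block, the 95% interval stayed within 2-fold either way for 8 of 39 members with Chd8 siRNA and 8 with Tsc2 siRNA. For the other members that fit could not exclude a 2-fold change. All 95% intervals given here are from that fit, which ignores the pairing, and none were computed with the block. The common biological coefficient of variation, a measure of the spread between libraries, was 0.408 without and 0.234 with the block. The S phase median log2 fold change ran from 0.05 to 0.22 with Chd8 siRNA, from -0.32 to 0.10 with Tsc2 siRNA, and from -0.07 to 0.33 between the knockdowns. The mitotic median ran from -0.84 to 0.37, from -0.86 to 0.21, and from -0.52 to 0.80.

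Members passing for the replicate number were 10 to 16 when 1 library was left out (25.6 to 41.0%, against 17.8 to 23.0% of all genes), 20 of 40 with no filter on low counts (against 15.5%), 14 with 10 counts required in 6 libraries (46.7% against 28.4%), and 15 with protein-coding transcripts only (41.7% against 25.6%). The targeted gene Chd8 passed with the replicate block, at a log2 fold change of -0.93 in edgeR and -0.92 in DESeq2, the latter chosen after seeing the data, and at -1.21, -1.07, -0.94, or -0.73 with the block and 1 of the libraries left out. Its call was lost with the block without the control library of number 2 (adjusted p = 0.0586) or 3 (0.0795) or the Chd8 siRNA library of number 2 (0.0821). The block, which uses the pairing of the replicate numbers, changed no other call of a member or of Tsc2.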
